A study of Mus musculus with 8 samples.

Results

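The 10 lysosomal cathepsins *Ctsa*, *Ctsb*, *Ctsc*, *Ctsd*, *Ctsf*, *Ctsh*, *Ctsk*, *Ctsl*, *Ctss* and *Ctsz* were followed by RNA-Seq in chronic stroke infarcts of aged mice. They were taken by name from the 46078 Ensembl gene identifiers counted in each library, and all 10 passed the filter on low counts. The lowest count of any of them in any library was 973, so counting error was small beside the differences between animals. The mean was higher in HPβCD infarcts for 9 of the 10, although the sign of *Ctsl* turned when 2 vehicle animals with neuron transcripts were left out. In 6 members (*Ctsa*, *Ctsb*, *Ctsd*, *Ctsf*, *Ctss* and *Ctsz*) each HPβCD library lay above each vehicle library, as in 8.77% of all tested genes. None of the 10 passed an adjusted p of 0.05 in edgeR, whereas DESeq2 and limma-voom each called these 6 as higher. Of all genes, edgeR called 1.17% as higher, DESeq2 6.1% and limma-voom 10.9%. The other 4 (*Ctsc*, *Ctsh*, *Ctsk* and *Ctsl*) overlapped between the groups, and *Ctsc* was the single one whose mean was not higher.

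All animals were wild-type C57BL/6J mice aged 18 months, male according to the methods of the study, that had received DH stroke, a model that combines occlusion of the distal middle cerebral artery with hypoxia. Injections were given subcutaneously 3 times per week for 6 weeks from 1 week after stroke. The vehicle group (n = 4) received sterile PBS, and the treated group (n = 4) received 4 g/kg of 2-hydroxypropyl-β-cyclodextrin (HPβCD), a ring-shaped sugar that holds cholesterol and other lipids in its cavity. Infarcts were cut out by eye at 7 weeks after stroke, so the amount of adjoining brain tissue was not fixed. No sham-operated or untreated animals were analysed here, and every comparison is between treated and vehicle-treated infarcts after the same injury.

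Cathepsins are the proteases of the lysosome. They are made as inactive precursors, carried from the Golgi apparatus to the endolysosome mainly by mannose 6-phosphate receptors, and matured in its acid interior, where they degrade proteins taken up or enclosed by the cell. Macrophages, which load themselves with myelin debris in old infarcts, are rich in them. Cathepsin D is an aspartic protease and cathepsin A a serine carboxypeptidase, whereas the remaining members here are papain-like cysteine proteases. Cystatins are their natural inhibitors.

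Libraries held between 16.6 M and 32.9 M gene counts. Markers of neurons, a list of 10 genes of which 8 were tested, summed to 1006 and 6393 CPM (read counts scaled to a common library size) in vehicle animals 1 and 3, against 26.8 to 53.2 CPM in the other vehicle libraries and 18.6 to 101 CPM in the HPβCD libraries. None of these 10 markers was at 0 in all libraries. Results are therefore also given without vehicle animals 1 and 3. The myeloid lineage that the infarct should hold was detected in every library, since all 13 of its reference markers passed the filter and summed to 2305 to 3596 CPM in vehicle and 3200 to 6065 CPM in HPβCD infarcts.

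RefSeq promoter windows, from 250 bases before to 50 bases after a start site (GRCm38.p6), were given for 8 of the 10 genes. They are shown because the CLEAR element, through which the MiT/TFE transcription factors act on lysosomal genes, has the core CACGTG. This core was searched on both strands, as were 2 longer forms that contain it, TCACGTG and the core with GT before and AC after it, and the variant CATGTG. The core was found in 4 of 9 windows, those of *Ctsa*, *Ctsd*, *Ctsf* and *Ctsl*, and in 7.15% of all 32851 windows. The form with a preceding T was found in the windows of *Ctsa* and *Ctsd* and in 3.77% of all windows, and the form with GT before and AC after the core in none of the 9 and in 0.326% of all. The variant CATGTG was found for *Ctsa* and *Ctss*, against 14.2% of windows. A letter match is not a measured binding site, and where no match was found only these letters were absent from the window. In the following lines the core upstream of the start site stands in capitals, read in the direction of the gene.
Ctsa, chr2:164833744-164833772, plus strand: aacaatgagcaaactgtCACGTGatgcag
Ctsd, chr7:142388050-142388077, minus strand: tccccCACGTGacctgtatccagtcatt
Ctsd, chr7:142387903-142387942, minus strand: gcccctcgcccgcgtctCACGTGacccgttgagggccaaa
Ctsf, chr19:4855069-4855108, plus strand: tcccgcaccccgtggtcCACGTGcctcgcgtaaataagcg
Ctsl, chr13:64370734-64370770, minus strand: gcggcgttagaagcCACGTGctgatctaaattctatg
The cores of *Ctsa*, *Ctsf* and *Ctsl* began 12, 79 and 236 bases before the start site, and those of *Ctsd* 245 and 98 bases before it.

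The ETS-type sequence GAGGAAGT, of the kind bound by the myeloid factor PU.1, was found in 2 windows, those of *Ctsc* and *Ctss*, and in 3.2% of all windows. Both lay on the strand opposite to the gene, so that the capitals below show the reverse complement.
Ctsc, chr7:88277917-88277958, plus strand: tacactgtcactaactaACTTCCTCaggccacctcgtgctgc
Ctss, chr3:95526767-95526791, plus strand: aaccgaaatgaaagttcACTTCCTC
The match of *Ctsc* began 151 bases before the start site and that of *Ctss* 2 bases before it. The log2 fold changes of these 2 genes in the comparison described next were -0.06 and 0.95.

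To compare cathepsin expression between treated and vehicle infarcts, genes were tested with edgeR's quasi-likelihood test, with p-values adjusted over all 14736 genes tested. *Ctsd*, the main aspartic protease of lysosomes (ENSMUSG00000007891, chr7:142375911-142388038, minus strand), reached 5806, 7422, 4968 and 9870 CPM in vehicle animals 1 to 4. It reached 11259, 13935, 16893 and 13368 CPM in HPβCD animals 1 to 4. All treated infarcts were above the highest vehicle infarct, and vehicle animals 1 and 3 were the lowest of the 8. Mean levels of 7016 ± 2158 CPM (vehicle) and 13864 ± 2325 CPM (HPβCD; SD, n = 4 each) gave a log2 fold change of 0.98 (SE 0.27; adjusted p = 0.0774 in edgeR). Without vehicle animals 1 and 3 it was 0.70.

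*Ctsa* (ENSMUSG00000017760, chr2:164832873-164841032, plus strand) encodes the serine carboxypeptidase that also protects neuraminidase 1 and β-galactosidase from degradation in a shared complex. Vehicle libraries held 214, 230, 246 and 269 CPM, and HPβCD libraries held 342, 384, 514 and 326 CPM. Groups did not overlap, and HPβCD animal 3 was the highest. The log2 fold change was 0.71 (SE 0.18; adjusted p = 0.0659 in edgeR). Its partners *Neu1* (85.5 ± 14.7 and 116 ± 25.7 CPM) and *Glb1* (71.5 ± 9.68 and 120 ± 34.8 CPM; SD, n = 4 in each group) had log2 fold changes of 0.44 and 0.74. Neither passed the threshold (adjusted p = 0.177 and 0.0785 in edgeR), and groups were separate for *Glb1* only of these partners.

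Among the cysteine cathepsins, *Ctsb* (ENSMUSG00000021939, chr14:63122462-63145923, plus strand), a broadly expressed protease that cuts both within proteins and at their ends, held 3875, 6038, 3995 and 6320 CPM in vehicle libraries. HPβCD libraries held 7684, 8958, 11171 and 8601 CPM. As with *Ctsd*, groups were separate and vehicle animals 1 and 3 were the lowest. The log2 fold change was 0.85 (SE 0.25; adjusted p = 0.0829 in edgeR), and it was 0.57 without these animals.

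*Ctss* (ENSMUSG00000038642, chr3:95526786-95556403, plus strand) encodes a cathepsin of antigen-presenting cells and microglia that stays active at neutral pH and cuts the invariant chain of MHC class II. It was measured at 1683, 2140, 1740 and 2113 CPM in vehicle infarcts. In HPβCD infarcts it was measured at 3321, 3222, 5476 and 2784 CPM. The vehicle libraries were close to each other, while HPβCD animal 3 stood above the rest of its group. The log2 fold change was 0.95 (SE 0.25; adjusted p = 0.0698 in edgeR), and 0.70 without HPβCD animal 3.

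*Ctsz* (ENSMUSG00000016256, chr2:174427493-174439039, minus strand), a carboxypeptidase also called cathepsin X, had the lowest adjusted p of the 10. Its vehicle libraries held 440, 449, 446 and 545 CPM, and its HPβCD libraries held 742, 812, 1122 and 679 CPM. Groups were separate, with vehicle animal 4 above its 3 group mates. The log2 fold change was 0.84 (SE 0.19; adjusted p = 0.0599 in edgeR) and 0.77 without vehicle animals 1 and 3.

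*Ctsf* (ENSMUSG00000083282, chr19:4855130-4860918, plus strand), a cysteine cathepsin with a long propeptide whose loss causes a neuronal lipofuscin storage disease, was the least abundant. It was found at 55.2, 46.4, 61.2 and 63.3 CPM in vehicle and at 69, 80.7, 75.2 and 77.8 CPM in HPβCD libraries. Differences among the treated animals were small, and groups were separate with the smallest log2 fold change of the 6, 0.42 (SE 0.13; adjusted p = 0.0948 in edgeR). Unlike the other 5, its lowest library was vehicle animal 2, which had few neuron transcripts, and the log2 fold change was 0.48 without vehicle animals 1 and 3. Taken relative to the myeloid markers of the same library it was 0.23.

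**Figure D1:**
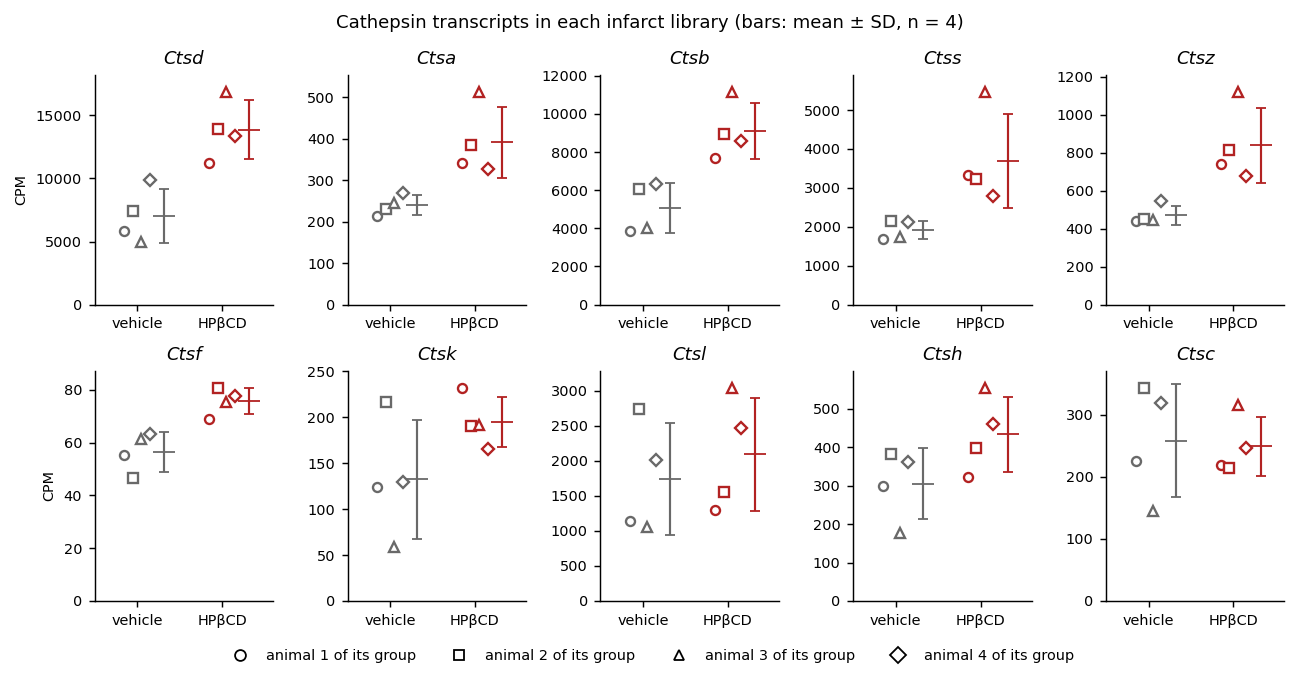
Expression of the 10 cathepsins (CPM, linear axes from 0) in each library, with vehicle in grey and HPβCD in red, a symbol for each animal number, and mean ± SD (n = 4) beside the points. The first 6 panels (*Ctsd*, *Ctsa*, *Ctsb*, *Ctss*, *Ctsz*, *Ctsf*) have separate groups and the last 4 overlap; the triangle in red, HPβCD animal 3, is the highest of all 8 libraries in 7 panels.

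Members that did not rise beyond the spread were *Ctsk*, *Ctsl*, *Ctsh* and *Ctsc*. *Ctsk* (ENSMUSG00000028111, chr3:95499256-95509362, plus strand), the collagen-cutting cathepsin of osteoclasts, lies 17423 bases from *Ctss* on the same strand. Vehicle libraries held 124, 217, 58.9 and 130 CPM, and HPβCD libraries held 232, 191, 192 and 165 CPM. The overlap came from vehicle animal 2, and the 3.68-fold range among vehicle animals was the widest of the 10 genes. The log2 fold change was 0.56 (SE 0.33; adjusted p = 0.313 in edgeR), 0.91 without vehicle animal 2 (adjusted p = 0.0801), 0.31 without vehicle animal 3 and 0.18 without vehicle animals 1 and 3.

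*Ctsl* (ENSMUSG00000021477, chr13:64359337-64370890, minus strand), a potent endopeptidase, held 1144, 2744, 1058 and 2018 CPM in vehicle and 1304, 1556, 3041 and 2470 CPM in HPβCD libraries. Each group contained both low and high animals, and 2 of 4 treated infarcts were below the vehicle mean of 1741 CPM. Its log2 fold change of 0.27 (SE 0.39; adjusted p = 0.701 in edgeR) was negative, -0.17, without vehicle animals 1 and 3, and -0.18 by limma-voom on all 8 libraries. No direction is therefore given for it.

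*Ctsh* (ENSMUSG00000032359, chr9:90054152-90076089, plus strand), an aminopeptidase that also takes part in surfactant processing in the lung, held 299, 383, 177 and 362 CPM in vehicle libraries. HPβCD libraries held 322, 399, 554 and 460 CPM, 3 of which exceeded the highest vehicle library. The log2 fold change was 0.51 (SE 0.27; adjusted p = 0.251 in edgeR) and 0.24 without vehicle animals 1 and 3.

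*Ctsc* (ENSMUSG00000030560, chr7:88278085-88310888, plus strand) encodes the dipeptidyl peptidase that activates granule serine proteases of leukocytes. Its vehicle libraries held 226, 343, 145 and 319 CPM, and its HPβCD libraries 219, 214, 316 and 246 CPM. Means were 258 ± 90.9 and 248 ± 47 CPM (SD, n = 4 each), with a log2 fold change of -0.06 (SE 0.27; adjusted p = 0.918 in edgeR). The sign depended on single animals: it was 0.12 without vehicle animal 2, 0.08 without vehicle animal 4, 0.006 without HPβCD animal 1 and 0.02 without HPβCD animal 2. Without vehicle animals 1 and 3 the log2 fold change was -0.40 (adjusted p = 0.247 in edgeR), and all 4 treated infarcts then lay below both remaining vehicle infarcts, as 16.1% of all tested genes did.

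Across the 10 members, edgeR called 0 at an adjusted p of 0.05, and it called 1.95% of all genes, 1.17% as higher. At an unadjusted p under 0.05 it found 6 members, all higher, against 27.8% of all genes in either direction and 11.8% higher. DESeq2, the test of the original study, called 6 members as higher (adjusted p from 0.00141 for *Ctsz* to 0.0383 for *Ctsf*), and it called 6.1% of all genes as higher. limma-voom with sample quality weights also called 6 as higher (adjusted p from 0.0135 for *Ctsz* to 0.0419 for *Ctsf*), against 10.9% of all genes. These were in each case the 6 members whose groups did not overlap, a property that 8.77% of all genes shared in this direction. The median log2 fold change of the 10 was 0.63, whereas that of all tested genes was -0.045, and 45.9% of genes had a positive value. Without vehicle animals 1 and 3, edgeR again called 0 members (1.34% of genes) and DESeq2 called 5, all higher (4.8% of genes higher), with *Ctsf* no longer among them. The vehicle animals are then n = 2, and 6 members still lay above both, as did 16.8% of all genes.

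**Figure D2:**
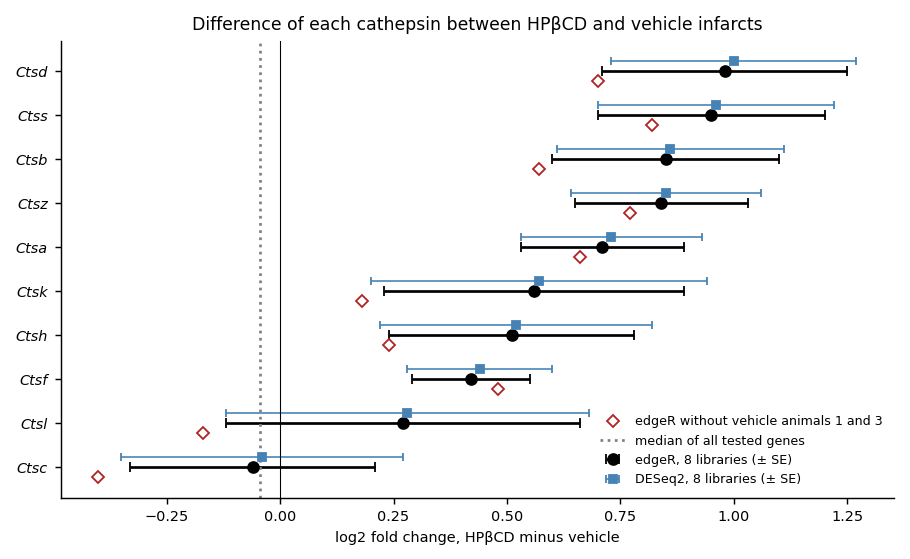
Log2 fold change (HPβCD minus vehicle) of each cathepsin, with black points for edgeR on 8 libraries, blue squares for DESeq2 (bars: SE for both) and red diamonds for edgeR without vehicle animals 1 and 3. The SE of edgeR is derived from its F statistic, whereas that of DESeq2 is fitted. The dotted line is the median of all tested genes, -0.045; the diamonds of *Ctsl* and *Ctsc* lie at -0.17 and -0.40, while those of the other 8 members stay above 0.

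The order of abundance was compared per length, as CPM per kilobase of merged exons. *Ctsd* was first in both groups at 2984 ± 918 and 5897 ± 989 CPM per kb (SD, n = 4 each). *Ctss* followed at 1413 ± 177 and 2725 ± 888, *Ctsb* at 836 ± 215 and 1504 ± 244, and *Ctsz* at 326 ± 34.9 and 582 ± 136. *Ctsl*, at 268 ± 123 and 323 ± 124 CPM per kb, overlapped with *Ctsz* in vehicle infarcts. *Ctsk*, *Ctsh*, *Ctsa* and *Ctsc* came next at means from 87.6 down to 44.4 CPM per kb in vehicle infarcts, where neighbours among these 4 overlapped. In HPβCD infarcts *Ctsa* and *Ctsc* no longer overlapped. *Ctsf* was last in both groups (11.2 ± 1.5 and 15 ± 0.992 CPM per kb). With the longest transcript in place of merged exons, *Ctsh* came before *Ctsk*, *Ctsc* before *Ctsa* in vehicle infarcts, and *Ctss* overlapped with *Ctsb*. In HPβCD infarcts *Ctsa* then overlapped with *Ctsc* and *Ctsz* with *Ctsl*, while the first 5 and the last place stayed. For *Ctsl* the 2 lengths were nearly alike, 6489 and 6168 bases, so they hardly test its place. If its reads came mostly from a shorter transcript, its level per length would be higher than given, which was not tested.

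**Figure D3:**
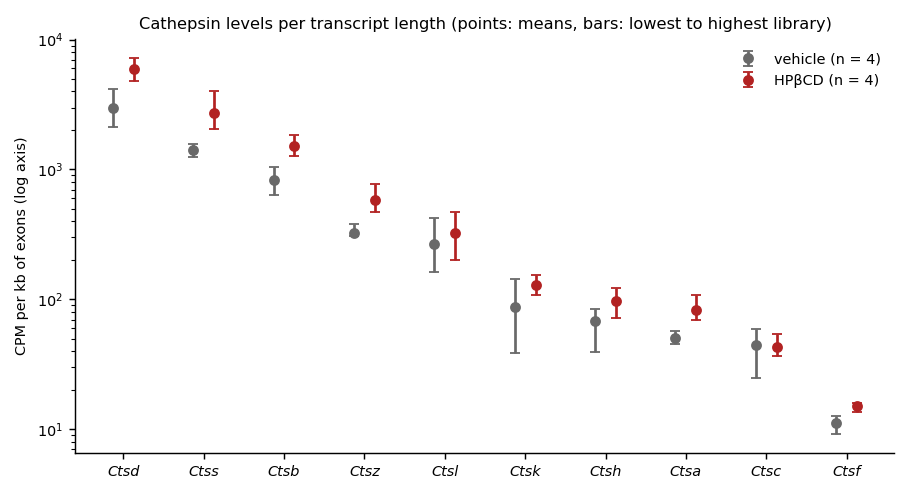
Level of each cathepsin in CPM per kb of merged exons on a log axis, in vehicle (grey) and HPβCD (red) infarcts; points are means of 4 libraries and bars run from the lowest to the highest library. The order of genes was shared by both groups, from *Ctsd* (means of 2984 and 5897) to *Ctsf* (11.2 and 15).

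The 10 genes together took 1.48%, 2.12%, 1.21% and 2.31% of the gene counts in vehicle animals 1 to 4, and 2.5%, 2.83%, 3.77% and 2.91% in HPβCD animals 1 to 4. The lowest treated infarct exceeded the highest vehicle infarct. Group means were 1.78 ± 0.52% and 3 ± 0.544% (SD, n = 4 each), a difference of 1.23 percentage points that was 0.791 without vehicle animals 1 and 3, and the 95% Wilson interval of a single library was narrow, for example 2.299% to 2.313% in vehicle animal 4, for counting error only. *Ctsb* and *Ctsd* supplied between 67.3% and 73.6% of the cathepsin counts in vehicle and between 71.3% and 76.9% in HPβCD infarcts.

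The members were next compared with each other within each library, as the log2 ratio of each gene to the mean of the other 9, which does not depend on how libraries are scaled. *Ctsc* showed the largest difference. Its log2 ratio was -1.38, -1.18, -1.83 and -1.31 in vehicle animals 1 to 4 and -2.08, -2.26, -2.09 and -2.03 in HPβCD animals 1 to 4. All treated infarcts were below all vehicle infarcts, by 0.69 on average, and the treated animals spread little (SD 0.10). For *Ctsd* the log2 ratio was 3.82, 3.75, 3.83 and 4.20 in vehicle and 4.24, 4.44, 4.29 and 4.38 in HPβCD libraries, with the lowest treated value just above vehicle animal 4. For *Ctsb* it was 3.18 to 3.49 in vehicle and 3.62 to 3.73 in HPβCD libraries. The mean differences of the log2 ratio were 0.43 for *Ctsd* and 0.27 for *Ctsb*, and the ratios of the other 7 overlapped. Set against the mean of the 10, 37.3% of all other tested genes lay below in every treated library, as *Ctsc* did against the other 9, and 0.503% lay above. In terms of level per length, *Ctsc* made up 0.717 ± 0.141% of the summed cathepsin level in vehicle and 0.377 ± 0.0315% in HPβCD infarcts (SD, n = 4 each), without overlap. By this measure *Ctsd* (48.5 ± 3.95% and 52 ± 3.06%) and *Ctsb* (13.7 ± 0.873% and 13.3 ± 0.531%) overlapped between groups, and the mean of *Ctsb* was not higher.

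**Figure D4:**
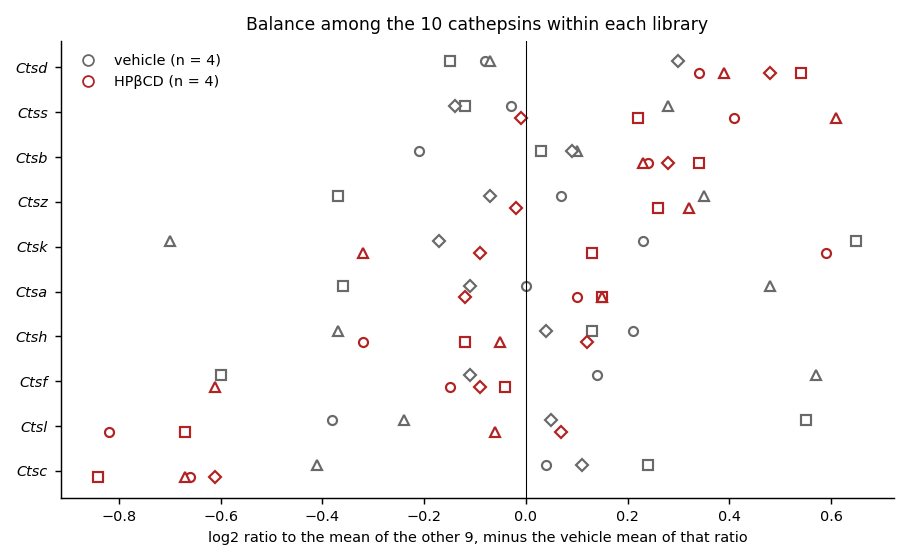
Log2 ratio of each cathepsin to the mean of the other 9 in the same library, minus the vehicle mean of that ratio, for vehicle (grey) and HPβCD (red) animals, with the same symbols for animal numbers as in the plot of expression by library. The red points of *Ctsc* lie left of all its grey points and those of *Ctsd* and *Ctsb* right of theirs; the other 7 genes overlap.

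Animals within a group differed, and the cathepsins followed each other to unequal degrees. After each group mean was taken out, the correlation of log2 CPM over the 8 libraries was 0.97 between *Ctsa* and *Ctsz*, 0.95 between *Ctsc* and *Ctsh*, 0.93 between *Ctsb* and *Ctsd* and 0.91 between *Ctss* and *Ctsz*. For *Ctsl* the nearest member was *Ctsb* (0.88), and for *Ctsk* it was *Ctsc* (0.79). *Ctsf* stood apart, with 0.29 to its nearest member *Ctsa* and -0.72 to *Ctsk*. Of the 45 pairs, 38 were positive, with a median of 0.59. These values describe 8 libraries that share their tissue composition and scaling. Part of the pattern could be read by animal: HPβCD animal 3 was the highest of its group in 8 members, whereas vehicle animal 3 was the lowest of all 8 in 5 members and vehicle animal 1 in 4.

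Among the 9557 genes that averaged 10 CPM or more, those whose within-group pattern was most like the mean of the cathepsins were *Med17*, *Fcgr2b*, *Kcnk6*, *Il10ra*, *Akap13*, *Acot9*, *C1s1*, *P2rx7*, *Tpp1* and *Frmd4b*, with correlations of 0.98 to 0.96 over the 8 libraries. *Fcgr2b* (an inhibitory antibody receptor), *Il10ra* (a subunit of the interleukin-10 receptor) and *P2rx7* (an ATP-gated channel) are known from macrophages and other leukocytes. *Tpp1* is itself a lysosomal protease, with a log2 fold change of 0.91 (adjusted p = 0.0641 in edgeR).

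Of 12 other cathepsins, 3 passed the filter, and none of them differed at an unadjusted p under 0.05. *Ctso* (143 ± 36.2 and 159 ± 11.7 CPM; SD, n = 4 in each group), a cysteine cathepsin found in many tissues, had a log2 fold change of 0.15. *Ctsw* of cytotoxic lymphocytes and *Ctse*, an aspartic protease of immune cells, stayed at means of 3.09 to 7.49 CPM, with log2 fold changes of 0.34 and -0.21. None of the 3 was called by edgeR or DESeq2, and all overlapped between groups. The 8 cathepsins known from the rodent placenta (*Ctsj*, *Ctsm*, *Ctsq*, *Ctsr*, *Cts3*, *Cts6*, *Cts7* and *Cts8*) had no counts in any library, and *Ctsg* of granulocytes was below the filter. A count of 0 allows up to 0.181 CPM in the shallowest library.

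Of 15 listed cathepsin inhibitors, 8 were tested, and edgeR called 0 (2 at an unadjusted p under 0.05) while DESeq2 called 1. Of all genes, 27.8% had such an unadjusted p, and DESeq2 called 6.1% as higher. *Cst3*, the secreted cystatin C, averaged 1043 ± 219 CPM with vehicle and 1031 ± 213 CPM with HPβCD (SD, n = 4 each), with a log2 fold change of -0.02 (SE 0.22; adjusted p = 0.969 in edgeR). *Cstb*, the cytosolic cystatin B, had a log2 fold change of 0.42 (adjusted p = 0.148 in edgeR). *Serpinb6a*, a serpin that inhibits serine proteases such as cathepsin G, was the one called by DESeq2 (adjusted p = 0.0294). It had 183, 297, 141 and 299 CPM in vehicle and 392, 421, 380 and 407 CPM in HPβCD libraries, without overlap, for a log2 fold change of 0.80 (adjusted p = 0.0902 in edgeR). The mean log2 level of the cathepsins exceeded that of the inhibitors by 3.84 to 4.07 in vehicle and by 4.17 to 4.66 in HPβCD libraries, so that the difference between them was larger in each treated infarct, by 0.49 on average. This inhibitor level is an unweighted mean over the 8 tested genes. Set against the cathepsin mean, 37.3% of all other tested genes were likewise lower in every treated than in every vehicle library.

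Of the 9 genes of cathepsin delivery and maturation, edgeR called 1 and DESeq2 called 3, against 1.17% and 6.1% of all genes called as higher. *Igf2r*, the large mannose 6-phosphate receptor, rose from 123, 185, 128 and 165 CPM to 271, 358, 284 and 270 CPM, by 0.98 on the log2 scale (SE 0.18; adjusted p = 0.0483 in edgeR). Its adjusted p passed the threshold narrowly, and no member of the list was called without vehicle animals 1 and 3. The small receptor *M6pr* was at 526 ± 162 and 598 ± 63.8 CPM, different by 0.18 on the log2 scale (SE 0.24; adjusted p = 0.67 in edgeR). *Lgmn*, the asparaginyl endopeptidase that matures several cathepsins, overlapped between groups (0.48; adjusted p = 0.255 in edgeR). *Grn*, the precursor of granulins, which bind and stabilise cathepsin D, was separate between groups (0.85; adjusted p = 0.0791 in edgeR). The median log2 fold change of the list was 0.48.

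For the substrates of individual members, the picture differed from list to list. Among 7 genes of MHC class II chain processing, where cathepsin S acts, edgeR and DESeq2 called 0 (0 at an unadjusted p under 0.05 in edgeR) and no gene had separate groups. *Cd74*, the invariant chain, had a log2 fold change of -0.14 (adjusted p = 0.807 in edgeR) beside the 0.95 of *Ctss*. Of the granule proteases that cathepsin C activates, 6 of 10 were tested, 0 were called by either tool or had an unadjusted p under 0.05, and their summed level was at most 20.5 CPM in any library. All 5 fibrillar collagens, substrates of cathepsin K, had positive log2 fold changes (0.83 to 1.61), with a median of 1.01 that was 0.54 without vehicle animals 1 and 3. Of these, *Col1a1* (314 ± 102 CPM with vehicle, 961 ± 199 CPM with HPβCD; adjusted p = 0.0483 in edgeR) and *Col1a2* (922 ± 246 and 2533 ± 436 CPM; adjusted p = 0.0462 in edgeR; SD, n = 4 in each group) rose, by 1.61 and 1.46 on the log2 scale. In this list 2 genes were also called without vehicle animals 1 and 3 (1.34% of all genes), and between 0 and 2 when single libraries were left out. Among 8 tested genes that osteoclasts express with *Ctsk*, edgeR called 0 and 3 had an unadjusted p under 0.05, against 27.8% of all genes. DESeq2 called 2 as higher and 1 as lower, against 6.1% and 11.4% of all genes. *Atp6v0d2*, a proton pump subunit of osteoclasts and macrophages, was at 488 ± 173 and 1207 ± 218 CPM (1.31; adjusted p = 0.0516 in edgeR), and *Acp5*, the tartrate-resistant acid phosphatase, at 74.9 ± 11.5 and 140 ± 38.4 CPM (0.90; adjusted p = 0.0624 in edgeR). For both, groups were separate and DESeq2 made a call, which it did not for *Ctsk*. *Car2*, a carbonic anhydrase that oligodendrocytes also express, was lower with separate groups (125 ± 52.6 and 30.9 ± 30.2 CPM; adjusted p = 0.124 in edgeR).

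Other lysosomal genes were set beside the cathepsins from the same test. Of all genes, 45.9% had a positive log2 fold change, and edgeR and DESeq2 called 1.17% and 6.1% as higher. Of 36 other hydrolases, 35 had a positive log2 fold change with a median of 0.72, edgeR called 9 as higher and DESeq2 23. Among them were *Psap*, the precursor of the saposins, *Dpp7*, *Scpep1*, *Naglu*, *Galns*, *Gaa*, *Arsa* and *Arsb*, with log2 fold changes from 0.78 to 1.41. *Psap* rose from 4991 ± 898 to 13302 ± 3304 CPM (adjusted p = 0.0483 in edgeR), and *Dpp7*, a dipeptidyl peptidase of lysosomes, from 73.3 ± 6.53 to 178 ± 36.4 CPM (adjusted p = 0.0389 in edgeR; SD, n = 4 in each group). The standard errors of these named hydrolases ran from 0.12 (*Arsa* and *Arsb*) to 0.26 (*Psap*). *Lipa*, the acid lipase that frees cholesterol from its esters, averaged 720 ± 215 and 1360 ± 58.3 CPM with separate groups (adjusted p = 0.0643 in edgeR). Without vehicle animals 1 and 3, edgeR called 5 of the 36, and when single libraries were left out it called between 0 and 13. The log2 ratio of the cathepsins to these hydrolases was 2.09 to 2.45 in vehicle and 2.11 to 2.42 in HPβCD libraries and overlapped fully.

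Among 17 lysosomal membrane proteins, edgeR called the chloride transporter *Clcn7* (126 ± 16.5 and 243 ± 29.5 CPM; 0.94; adjusted p = 0.0427 in edgeR) and DESeq2 called 7. *Lamp1*, a main glycoprotein of the lysosomal membrane, overlapped between groups (1381 ± 408 and 2166 ± 294 CPM; adjusted p = 0.139 in edgeR). The median log2 fold change of this list was 0.59, and no member was called by edgeR without vehicle animals 1 and 3. For 16 proton pump subunits the median was 0.38, and edgeR called 0 (9 at an unadjusted p under 0.05) and DESeq2 5. Of all genes, 27.8% had an unadjusted edgeR p under 0.05, and edgeR and DESeq2 called 1.17% and 6.1% as higher. The 4 MiT/TFE factors, which activate lysosomal genes, had log2 fold changes of 0.22 to 0.57, and neither edgeR (2 at an unadjusted p under 0.05) nor DESeq2 called any. *Tfeb* itself was at 14 ± 2.16 and 17.4 ± 1.92 CPM (0.31; adjusted p = 0.249 in edgeR; SD, n = 4 in each group).

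**Figure D5:**
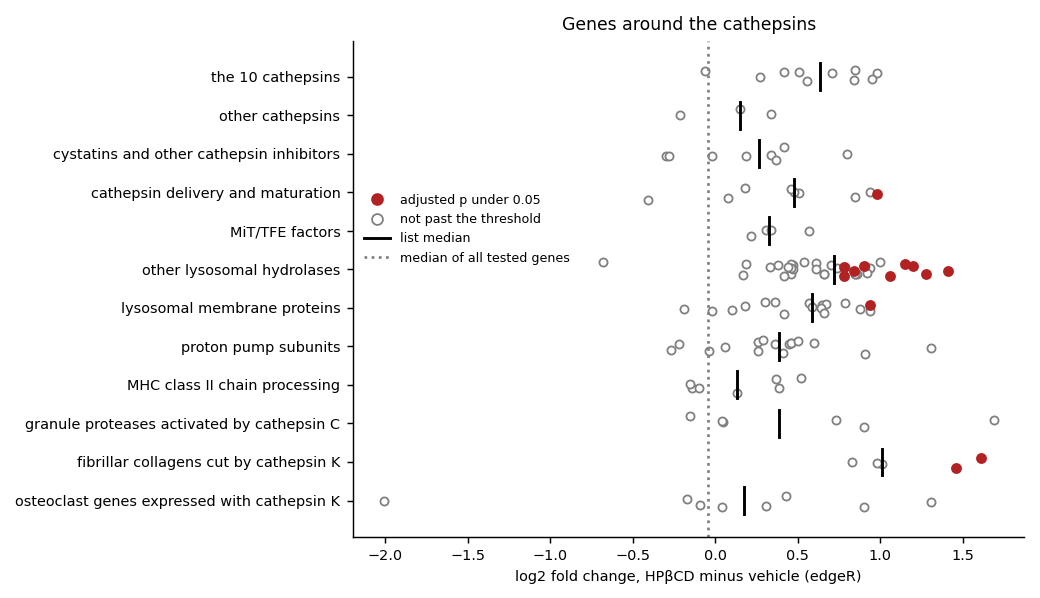
Log2 fold change (HPβCD minus vehicle, edgeR) of each tested gene in 12 lists around the cathepsins. Filled red points passed an adjusted p of 0.05, open points did not, black bars are list medians and the dotted line is the median of all tested genes (-0.045); the 10 cathepsins (median 0.63) are all open, while 9 of 36 other hydrolases (median 0.72) and 2 of 5 fibrillar collagens are filled.

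The summed levels of foamy macrophage and fibroblast markers moved in the same direction as the cathepsins. The summed level of 10 foamy macrophage markers was 7809 to 14011 CPM in vehicle and 17374 to 29208 CPM in HPβCD infarcts, without overlap, and *Gpnmb* was the member that edgeR called (4154 ± 1121 and 10803 ± 2648 CPM; SD, n = 4 in each group; adjusted p = 0.0483). Of these 10, 8 had a positive log2 fold change, *Lpl* and *Mmp12* had a negative one, and 3 had separate groups (median 0.76). Of all tested genes, 45.9% were positive, and 8.77% had separate groups in this direction. Without vehicle animals 1 and 3, 0 of these markers were called. Fibroblast markers summed to 2931 to 6920 and 9606 to 10645 CPM, also without overlap, with *Col1a1* and *Col1a2* called. The 13 myeloid reference markers overlapped in their sum (median log2 fold change 0.33), with 8 positive and 5 negative values. Of them, edgeR called 0 (5 at an unadjusted p under 0.05, against 27.8% of all genes). DESeq2 called 4 as higher and 1, *Cx3cr1*, as lower, against 17.5% of all genes in either direction. Microglia markers summed to 590 to 1161 and 814 to 1246 CPM, with *Siglech* lower (log2 fold change -2.40; adjusted p = 0.0483 in edgeR), a call that was also lost without vehicle animals 1 and 3. None of the genes of these 4 lists was at 0 in all libraries. The log2 ratio of the cathepsins to the myeloid markers was 1.72, 2.15, 2.01 and 2.07 in vehicle and 2.41, 2.40, 2.21 and 2.62 in HPβCD animals, higher in each treated infarct by 0.43 on average. Of all other tested genes, 37.3% were also lower against the cathepsin mean in every treated than in every vehicle library. Relative to foamy macrophage markers the cathepsins overlapped (difference -0.14), and relative to fibroblast markers each treated infarct was lower (difference -0.55). In bulk tissue, more cells of a type and more RNA per cell cannot be told apart, and the part of cell composition in the cathepsin differences was not tested further.

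Other cell types were lower or overlapped. Astrocyte markers summed to 2318 to 9884 CPM in vehicle and 709 to 2702 CPM in HPβCD infarcts, and oligodendrocyte markers to 1665 to 5264 and 379 to 2264 CPM. In these 2 lists edgeR called 0 (6 and 0 at an unadjusted p under 0.05), and DESeq2 called 5 and 1, all as lower. Of all genes, 27.8% had such an unadjusted p, and edgeR and DESeq2 called 0.774% and 11.4% as lower. B lymphocyte and plasma cell markers summed to 1529 to 3138 and 368 to 687 CPM without overlap, and edgeR called *Cd79a*, *Cd79b* and *Jchain* as lower, or 2 genes of this list without vehicle animals 1 and 3. *Jchain*, the joining chain of antibodies, fell by 4.00 on the log2 scale, with means of 1596 ± 610 and 99.6 ± 87.6 CPM ( adjusted p = 0.0462 in edgeR; SD, n = 4 in each group). Endothelial, T and NK lymphocyte, and granulocyte and mast cell markers overlapped in their sums, with 0 calls by edgeR (3, 1 and 0 at an unadjusted p under 0.05). DESeq2 called 2, 1 and 0 of them, all as higher, against 6.1% of all genes.

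Some exons of the members are shared with other annotated genes. Of the exon bases, 34.4% of *Ctsd* overlap the predicted gene *Gm49369* on the same strand, while 6.09% of *Ctsl* overlap *Gm49230* on the same strand and 26.8% overlap *Gm47123* on the opposite strand. These predicted genes are not among the counted identifiers. *Ctsa* overlaps *Neurl2* and *Pltp* over 17.4% of its exon bases, *Ctsb* overlaps *Fdft1* over 12.8% and *Ctsz* overlaps *Nelfcd* over 0.694%, all on the opposite strand and all counted. The library kit keeps the strand, but the strand option of the counting was not stated. It is therefore not known whether reads in these stretches were counted for the cathepsin, for the other gene or for neither. For *Ctsc*, *Ctsf*, *Ctsh*, *Ctsk* and *Ctss*, no stretch of 75 bases, the read length, occurs in the transcripts of another gene.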

How the data were processed

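Bulk RNA-Seq libraries from 8 infarcts were made by the authors with a strand-specific poly(A) kit and sequenced as 75 bp paired-end reads. Per the labels, the authors used bcl2fastq 2.19, Trimmomatic 0.32, STAR 2.5.2b on GRCm38 and HTSeq; the version and strand option of HTSeq and the annotation release are not given in the sources used here. The deposited values are raw read counts per gene (46078 identifiers). Reads assigned to no gene, 26.6% to 36.6% per library, were left out. Symbols matched 45143 identifiers. Coordinates come from GENCODE M21 (GRCm38), promoters from RefSeq (GRCm38.p6).

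Sample titles gave the groups and the replicate numbers, which are used here as animal numbers. No library repeated another within sampling noise (lowest chi-square per degree of freedom 18.9). The labels list the libraries as separate replicates of a group without naming animals; if any shared one, p-values would measure technical spread only. No batch is given. Counts were tested with edgeR 4.0.16 in R 4.3.3 (robust quasi-likelihood F test, TMM, filterByExpr, 14736 genes kept, Benjamini-Hochberg adjustment over all of them, threshold 0.05). Alternatives were DESeq2 1.42.0, limma-voom (limma 3.58.1), other scalings and filters, thinning, a replicate block and left-out libraries. The scripts were tested on simulated data. Each SE given for edgeR is the absolute log2 fold change divided by the square root of the F statistic, not a fitted standard error. CPM are scaled by library totals and TMM factors, and log2 CPM uses a prior count of 2. The floor of a count of 0 is 3 counts. Depth of 16.6 M to 32.9 M gene counts makes counting error of the members small; intervals cover counting error only.

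The members and gene lists were chosen with earlier results of these data known. Named are all members, the genes of other lists that edgeR called, and the 10 genes most like the cathepsin mean. Of the remaining list genes, only some are named, and this holds also for the 3 most abundant of each list. The rest enter through counts, medians or sums. Single genes such as *Nelfcd* are there as partners or overlaps. A called gene of the other hydrolases is not reported here by name.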

Additional observations from a re-analysis of the deposited data

Results flagged for a closer look

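*Ctsz* in vehicle animal 4 stood apart from its group, at 545 CPM against 440 to 449 CPM in the other 3 vehicle animals; the gap was 0.904 of the group's range, above Dixon's critical value for 4 samples. Of 22 groups of 4 libraries searched this way, 1 stood apart, and chance gives about 1.1, or 1 group in 20. With this animal in place the groups of *Ctsz* did not overlap, since the lowest HPβCD library held 679 CPM.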

How the results depend on the processing

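edgeR called 287 genes in all. It called 11 with library totals alone and 9 with the replicate block, DESeq2 called 2911 and limma-voom 3253, and leaving out single libraries gave 0 to 629 (0 without animal 1 or 4 of the vehicle group, and without animal 2 or 3 of the HPβCD group). DESeq2 without vehicle animals 1 and 3, chosen after seeing the data, called 1240. Cathepsins called were 0 by edgeR under every scaling, filter, thinning, replicate block and left-out library, 6 by DESeq2, 6 by limma-voom and 5 by DESeq2 without vehicle animals 1 and 3. Animal numbers did not pair the libraries (correlations of same-numbered deviations of -0.26, 0.24, 0.33 and 0.1), so the replicate block says nothing about the size of an effect.

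The sign of *Ctsl* reversed by limma-voom (-0.18), by edgeR without vehicle animals 1 and 3 (-0.17) and by DESeq2 without them (-0.18). That of *Ctsc*, which ranged from -0.25 to 0.12 over the 8 fits that left out 1 library, reversed in 4 of them (0.12, 0.08, 0.006 and 0.02). The cause was not tested. The other 8 members kept a positive log2 fold change in all 19 alternatives, with lowest values of 0.69 for *Ctsd*, 0.70 for *Ctss*, 0.62 for *Ctsz*, 0.57 for *Ctsb*, 0.49 for *Ctsa*, 0.23 for *Ctsf*, 0.19 for *Ctsh* and 0.18 for *Ctsk*. The difference of the cathepsin share of gene counts, 1.23 percentage points, was 0.791 without vehicle animals 1 and 3, an alternative also added later. All 135 alternatives of the within-library ratios moved by less than 1 SD. Each left out 1 library or used a prior count of 0.5. Leaving out 1 of 4 libraries cannot move a group mean by 1 SD, so this result does not show that the ratios are robust. With the longest transcript, 10 of 20 levels per length moved by less than 1 SD.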
